A study of Mus musculus with 8 samples.

Results

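Peptides for MHC class I are cut by the proteasome, carried into the endoplasmic reticulum, trimmed and loaded, and 10 mouse genes of that route were followed here: *Tap1*, *Tap2*, *Tapbp*, *Psmb8*, *Psmb9*, *Psmb10*, *Psme1*, *Psme2*, *B2m* and *Erap1*. They are grouped here by their known function. A gene was read from probe sets annotated to it alone, and where it had several, from the one with the highest mean over the 8 arrays. This gave 9 of the 10 genes, with 16 probe sets between them, of 18183 genes with such a probe set on the array. The only probe set of *Psme2* is shared with another gene, so *Psme2* has no value below. In the 9 genes measured, the highest group mean was always that of knockout macrophages under LPS alone and the lowest that of WT macrophages given LPS and IL-10.

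The arrays measured RNA of bone marrow-derived macrophages (BMDM) from C57Bl/6 mice in 4 groups of 2. The groups were miR-155-/-(LPS + IL-10), miR-155-/-(LPS), WT(LPS + IL-10) and WT(LPS), with 1 array per group from each of 2 mice per genotype. The miR-155-/- mice lack microRNA-155 and are male by their labels, whereas the WT mice are female, so by the labels genotype and sex cannot be told apart in any comparison between them. The study's general description of macrophage culture names only adult female littermates, with another amount of L929 medium and another culture time than the labels of these arrays, and which of them holds for these mice is not settled. Marrow was frozen, thawed and grown for 7 days in 15% L929 conditioned medium, a source of M-CSF. All 8 cultures then received LPS (100 ng/ml) for 24 h, and those with IL-10 (20 ng/ml) received it 5 min earlier. Every value below is therefore a level under LPS. The study's general description also gives an age range in weeks for those littermates, and whether it holds for these mice is likewise not settled. Apart from that, no age is tied to these arrays.

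In most cells the proteasome works with 3 constitutive catalytic subunits. Interferon and inflammatory signals add the immunoproteasome subunits, encoded by *Psmb8*, *Psmb9* and *Psmb10*, which take their places and favour peptides that fit class I. The activator PA28, made of the products of *Psme1* and *Psme2*, opens the core. TAP, a dimer of *Tap1* and *Tap2*, pumps peptides into the endoplasmic reticulum, where tapasin (*Tapbp*) holds the empty class I molecule beside TAP, ERAP1 (*Erap1*) trims peptides, and β2-microglobulin (*B2m*) is the light chain of the finished complex. LPS-activated macrophages induce much of this set through their own type I interferon, and IL-10 is known to restrain that response. miR-155, the deleted microRNA, is induced by LPS. Its mature 5p strand (RefSeq, GRCm38.p6, chr16:84714143-84714165, plus strand) is shown because it is what the knockout lacks, with the seed, bases 2 to 8, in capitals.
mmu-miR-155-5p: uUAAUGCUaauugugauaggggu

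The values are log2 RMA values, in which 1 unit is a doubling of signal, and the medians of the 8 arrays lay between 3.88 and 3.97. The transcript that carries miR-155, *Mir155hg*, lay between 1.70 and 2.19 on the 4 knockout arrays and between 2.01 and 4.02 on the 4 WT arrays. It was low everywhere, and no source used here places its probe set relative to the deletion, so it does not check the genotype labels. The 8 macrophage markers had a median of 12.6 to 12.8 on every array. The 11 fibroblast and stromal markers had a median of 10.1 on both arrays of WT donor 1, which held the highest value of 10 of them, against 3.72 to 5.63 on the other 6 arrays. None of the 9 genes had its highest array in WT donor 1. The neutrophil-associated *S100a8* and *S100a9* were lower in the knockout under LPS. They differed by -1.17 and -3.12 in log2 value between miR-155-/-(LPS) and WT(LPS) (limma, adjusted p = 0.0141 and 0.0153). No other of the 7 measured neutrophil markers was called in that comparison. Of the 7, 5 had a negative and 2 a positive difference, with a median of -0.04. *Lum*, a stromal proteoglycan, was higher in the knockout under LPS by 2.57 (adjusted p = 0.0125). It was alone in this among the 11 fibroblast and stromal markers. The other 10 had a negative difference without a call, and the median of the 11 was -2.63, with WT donor 1 in the WT mean. These calls were lost without some single arrays (adjusted p up to 0.13). *S100a8* was higher in miR-155-/-(LPS + IL-10) than in miR-155-/-(LPS) by 1.59 (adjusted p = 0.00261), and *S100a9* lower in miR-155-/-(LPS + IL-10) than in WT(LPS + IL-10) by a log2 difference of -4.44 (adjusted p = 0.0187). Leaving out single arrays kept this last call in 2 of 8 fits and raised its adjusted p to as much as 0.159. The part of these markers in the results below was not tested, and in RNA from whole cultures fewer cells of a type and less RNA per cell cannot be told apart.

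Levels of the 9 genes went the same way across the groups. All 9 had their highest group mean in miR-155-/-(LPS) and their lowest in WT(LPS + IL-10), an arrangement found in 15.1% of the 45011 probe sets tested. In 7 of them the full order from high to low was miR-155-/-(LPS), miR-155-/-(LPS + IL-10), WT(LPS), WT(LPS + IL-10). *Tapbp* and *Erap1* were the exceptions, where WT(LPS) came before miR-155-/-(LPS + IL-10). In *Tapbp* these neighbours had means of 12.61 in miR-155-/-(LPS + IL-10) and 12.69 in WT(LPS), and in *Erap1* of 8.37 and 8.42, closer than the arrays of one group could lie (gaps of up to 0.19 and 0.47). The single highest array of each of the 9 genes was that of miR-155-/-(LPS) donor 1. The span of the 8 arrays was 2.54 for *Tap1* and 1.57 for *Psmb9*, but 0.38 for *Tapbp* and 0.12 for *B2m*. Averaged over the 9 genes after each was centred on its own mean, the miR-155-/-(LPS + IL-10) arrays stood at 0.06 and -0.10, the miR-155-/-(LPS) arrays at 0.63 and 0.45, the WT(LPS + IL-10) arrays at -0.44 and -0.32, and the WT(LPS) arrays at -0.20 and -0.07.

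**Figure D1:**
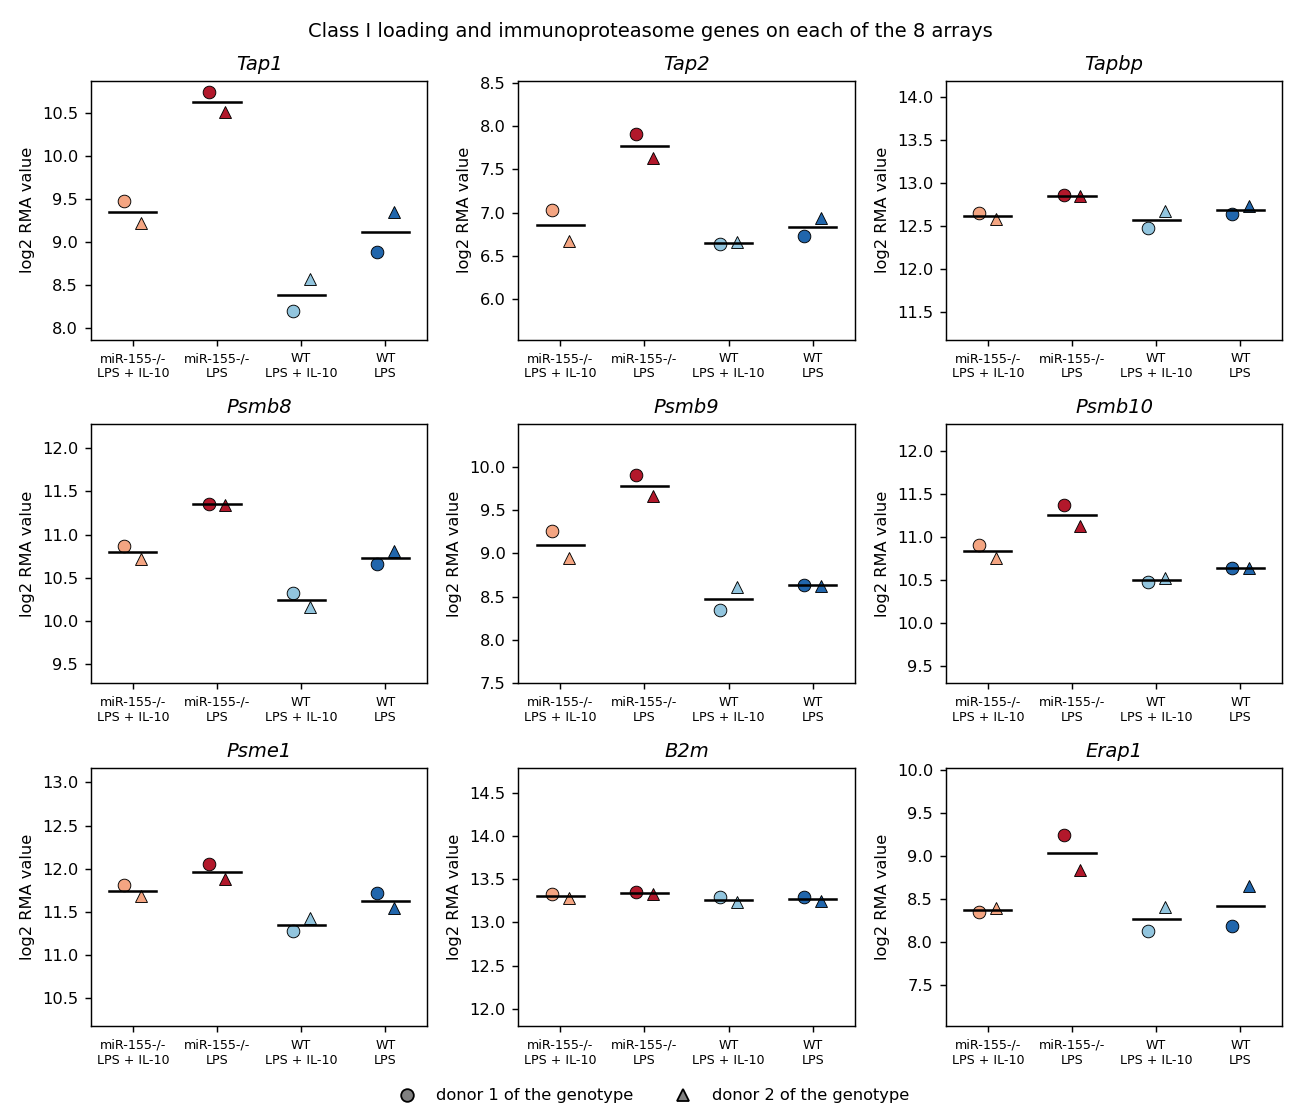
Log2 RMA value (y axis, 3 units high in every panel) of the 9 measured genes on each array, by group (x axis). Circles and triangles are the 2 donors of a genotype and bars are group means; the miR-155-/-(LPS) points are the highest of all in each panel, with *Tap1* means of 10.63 in miR-155-/-(LPS) and 9.12 in WT(LPS).

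*Tap1* and *Tap2*, the subunits of the peptide pump, were higher in knockout than in WT macrophages under LPS. *Tap1* stood at 10.75 and 10.51 in miR-155-/-(LPS), against 8.88 and 9.35 in WT(LPS). The arrays of the groups did not overlap, as in 25.3% of all probe sets. The difference was 1.51 ± 0.20 (SE), or 2.85-fold (limma, adjusted p = 0.0221). *Tap2* stood at 7.91 and 7.63 in miR-155-/-(LPS), against 6.73 and 6.94 in WT(LPS). Its arrays did not overlap either, while the difference of 0.93 ± 0.17 did not pass the test (adjusted p = 0.0527). With IL-10 present the knockout fell in both genes. *Tap1* was at 9.48 and 9.22 in miR-155-/-(LPS + IL-10), lower than in miR-155-/-(LPS) by a log2 difference of -1.28 ± 0.18 (adjusted p = 0.0165). *Tap2* was at 7.03 and 6.67, a difference of -0.92 ± 0.15 (adjusted p = 0.0275). The same step in WT was smaller in size. *Tap1* was at 8.20 and 8.57 in WT(LPS + IL-10), a difference of -0.73 ± 0.18 from WT(LPS) (adjusted p = 0.286), and *Tap2* at 6.64 and 6.66, a difference of -0.19 ± 0.15 (adjusted p = 0.706). In both genes the miR-155-/-(LPS + IL-10) arrays were above the WT(LPS + IL-10) ones, with no overlap, as in 23.2% of all probe sets. Those differences of 0.96 ± 0.20 and 0.21 ± 0.17 did not pass (adjusted p = 0.217 and 0.741). The comparison of the genotypes under LPS and that of IL-10 in the knockout share the 2 miR-155-/-(LPS) arrays.

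*Tap1* had 3 further probe sets, and they did not follow the first. Their means over the 8 arrays were 5.07, 1.86 and 1.26, where the brightest had 9.37, and the last 2 lie below the median of every array. In miR-155-/-(LPS) they differed from WT(LPS) by 0.23, 0.11 and 0.09 and none passed (adjusted p = 0.669 to 0.876). With the 4 probe sets averaged, the difference of *Tap1* was 0.49 and was not called. *Tap2* had 1 probe set.

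Of the 10 genes, 5 lie on chromosome 17 and the others on chromosomes 2, 8, 13 and 14. In the RefSeq order of GRCm38.p6, *Psmb9*, *Tap1*, *Psmb8* and *Tap2* follow one another on chromosome 17 with 0 protein-coding genes between them, and *Tapbp* lies on the same chromosome with 17 protein-coding genes between it and *Psmb9*. *Psmb9* and *Tap1* point away from each other with start sites 226 bases apart, so their promoter windows, each from 250 bases before the start to 50 after it, overlap by 275 bases. *Psmb9* was the other gene called in the comparison of genotypes under LPS, and whether the overlap bears on the calls was not tested. The stretch they share around a GC box (GGGCGG, either strand, the site of SP1-type factors) is shown as read along each gene, with the box in capitals, at chr17:34187368-34187397.
*Tap1*, plus strand: cagactgaggccCCGCCCcatcatcgcgca
*Psmb9*, minus strand: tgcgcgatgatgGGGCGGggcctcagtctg
The box starts 176 bases before the *Tap1* start and 55 before the *Psmb9* start. GC boxes were in the windows of 6 genes (*Tap1*, *Tapbp*, *Psmb9*, *Psme1*, *Psme2* and *Erap1*) and in 35.7% of all 32851 windows. Windows were held for 9 of the 10 genes, with 2 for *Psme2* and none for *Tap2*.

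Other motifs, through which interferon or inflammatory signalling acts, were searched on both strands of the same windows. The core of the interferon-stimulated response element (GAAA, then any 2 bases, then GAAA) was in 3.44% of all windows and in those of *B2m*, *Erap1* and *Psme1*. The STAT dimer motif (GAS, TTCNNNGAA) was in 8.3% and in that of *Psmb8*, and the NF-kB consensus was in 4.51% and in that of *B2m*. The matches are shown, in capitals within the gene's own strand, because they fall in genes that differ in how far they moved. The *Erap1* and *Psme1* cores and the NF-kB match lie on the opposite strand, and the *B2m* core and its NF-kB match do not overlap.
*B2m*, chr2:122147538-122147567, plus strand, response element: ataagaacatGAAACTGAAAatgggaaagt
*B2m*, chr2:122147551-122147580, plus strand, NF-kB: actgaaaatgGGAAAGTCCCtttgtaacct
*Erap1*, chr13:74639839-74639868, plus strand, response element: ccaccttcacTTTCACTTTCggtcccgggc
*Psme1*, chr14:55578493-55578522, plus strand, response element: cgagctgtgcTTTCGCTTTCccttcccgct
*Psmb8*, chr17:34198088-34198117, plus strand, GAS: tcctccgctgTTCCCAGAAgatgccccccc
These are letter matches only, and the arrays do not measure binding. None of these was found in the windows of *Tap1*, *Psmb9*, *Psmb10* or *Tapbp*, which says only that these letters are not in those 300 bases.

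The 3 immunoproteasome subunits were higher in knockout than in WT macrophages under LPS, and 1 of them passed the test. *Psmb9*, the β1i subunit, was at 9.91 and 9.66 in miR-155-/-(LPS), against 8.63 and 8.63 in WT(LPS). The difference was 1.16 ± 0.17, or 2.23-fold (adjusted p = 0.0276). *Psmb8*, the β5i subunit, was at 11.36 and 11.35 in miR-155-/-(LPS), against 10.66 and 10.81 in WT(LPS), a difference of 0.62 ± 0.14 (adjusted p = 0.0968). *Psmb10*, the β2i subunit, was at 11.38 and 11.13 in miR-155-/-(LPS), against 10.64 and 10.65 in WT(LPS), a difference of 0.61 ± 0.14 (adjusted p = 0.0955). All 6 knockout values thus lay above the WT values of the same gene, an arrangement that 25.3% of all probe sets had. A second, dim probe set of *Psmb8* (mean 2.55) differed by 0.57 (adjusted p = 0.155). With IL-10 the knockout values were lower, with no overlap (as in 23.4% of all probe sets) and with no call. *Psmb9* was at 9.26 and 8.94 in miR-155-/-(LPS + IL-10), a difference of -0.69 ± 0.15 from miR-155-/-(LPS) (adjusted p = 0.0622). *Psmb8* was at 10.87 and 10.72, a difference of -0.56 ± 0.12 (adjusted p = 0.0671), and *Psmb10* at 10.91 and 10.76, a difference of -0.42 ± 0.12 (adjusted p = 0.129). In WT(LPS + IL-10), *Psmb8* was at 10.32 and 10.16, a difference of -0.49 ± 0.12 from WT(LPS) (adjusted p = 0.297). *Psmb9* at 8.34 and 8.61 and *Psmb10* at 10.49 and 10.52 differed from WT(LPS) by -0.16 ± 0.15 and -0.14 ± 0.12 (adjusted p = 0.762 and 0.731).

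The constitutive subunits that these 3 replace gave other values between the genotypes under LPS and with IL-10 in the knockout. With IL-10 in WT they were close to *Psmb9* and *Psmb10*, which differed there by -0.16 and -0.14. *Psmb6* (β1), *Psmb5* (β5) and *Psmb7* (β2) differed between miR-155-/-(LPS) and WT(LPS) by 0.01, -0.05 and -0.18 (adjusted p = 0.987, 0.913 and 0.619). The 95% intervals of these differences ran from -0.32 to 0.33, -0.33 to 0.24 and -0.51 to 0.14. They lie below the estimates for the immunoproteasome subunits. The intervals of *Psmb8* (0.29 to 0.95) and *Psmb10* (0.29 to 0.93) overlap that of *Psmb6*, and that of *Psmb9* (0.76 to 1.55) does not. Whether the constitutive subunits differ from the immunoproteasome ones was not tested. The groups overlapped in all 3 genes. With IL-10 in the knockout they differed by 0.07, -0.05 and 0.20, and with IL-10 in WT by -0.08, -0.16 and -0.13, and none passed. Over the 11 other subunits of the 20S core, 0 passed in any comparison, and the median difference between miR-155-/-(LPS) and WT(LPS) was -0.04. Over 17 measured subunits of the 19S cap the median was 0.07, and again 0 passed in any comparison. At an unadjusted p under 0.05, 1 gene of each of these lists was higher in miR-155-/-(LPS). In miR-155-/-(LPS + IL-10) minus WT(LPS + IL-10), all subunits of both lists and all 3 constitutive ones had positive differences. Their medians there were 0.20, 0.15 and 0.15, and that of the 9 genes was 0.33. *Psme1*, the α subunit of PA28, was at 12.05 and 11.88 in miR-155-/-(LPS), against 11.72 and 11.54 in WT(LPS), a difference of 0.33 ± 0.14 (adjusted p = 0.372).

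**Figure D2:**
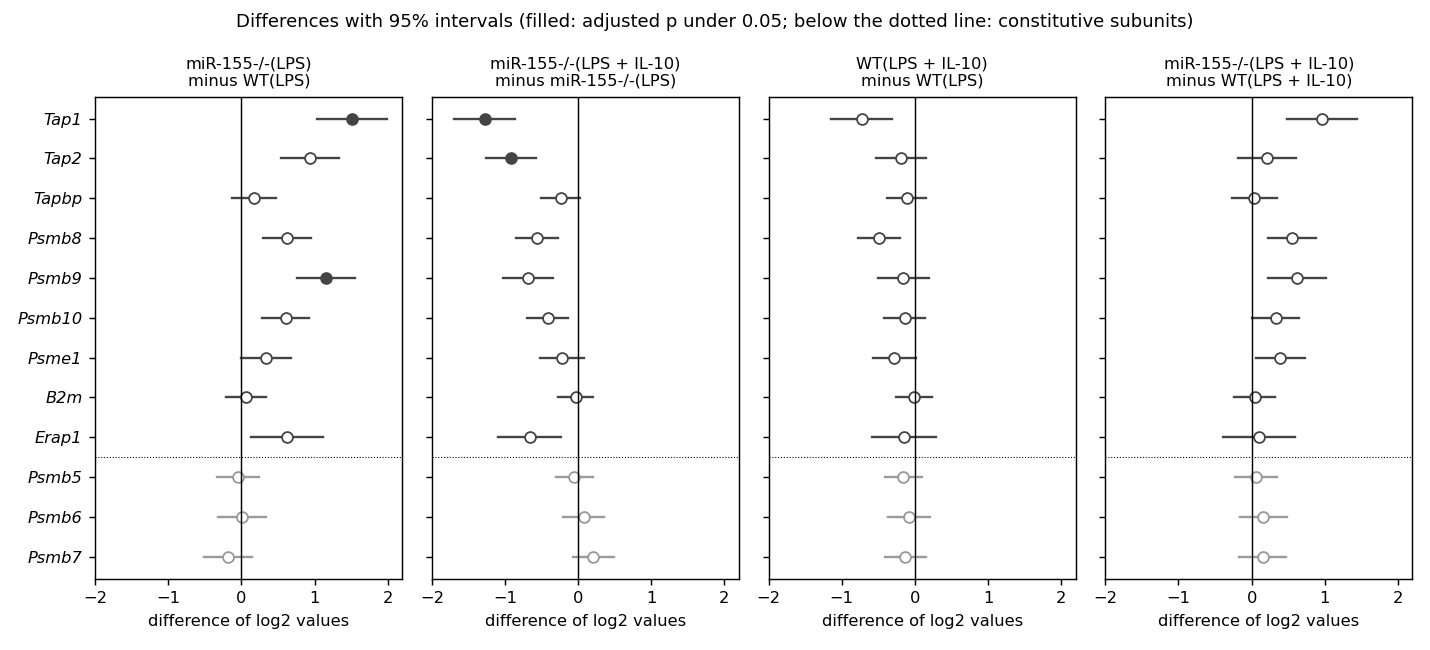
Difference of log2 values (x axis) with its 95% interval from limma for the 9 genes and the 3 constitutive subunits (y axis) in 4 comparisons. Filled points have an adjusted p under 0.05: *Tap1* (1.51) and *Psmb9* (1.16) in miR-155-/-(LPS) minus WT(LPS), *Tap1* (-1.28) and *Tap2* (-0.92) in miR-155-/-(LPS + IL-10) minus miR-155-/-(LPS).

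Of the genes that act on the class I molecule itself or on peptides after transport, none was called in any comparison. *Erap1* was at 9.24 and 8.84 in miR-155-/-(LPS), against 8.18 and 8.65 in WT(LPS), a difference of 0.62 ± 0.21 (adjusted p = 0.249). In miR-155-/-(LPS + IL-10) it was at 8.35 and 8.40, a difference of -0.66 ± 0.18 from miR-155-/-(LPS) (adjusted p = 0.123). Its second probe set gave 0.54 and -0.46 for the same comparisons (adjusted p = 0.169 and 0.132). *Tapbp* was at 12.86 and 12.85 in miR-155-/-(LPS), against 12.64 and 12.73 in WT(LPS), a difference of 0.17 ± 0.13 (adjusted p = 0.628). The second and dimmer probe set of *Tapbp* gave larger differences. It was at 6.39 and 6.70 in WT(LPS + IL-10), against 7.21 and 7.32 in WT(LPS), a difference of -0.72 (adjusted p = 0.168). It differed by -0.50 between miR-155-/-(LPS + IL-10) and miR-155-/-(LPS) and by 0.55 between miR-155-/-(LPS + IL-10) and WT(LPS + IL-10) (adjusted p = 0.117 and 0.363). *B2m* was at 13.35 and 13.33 in miR-155-/-(LPS), against 13.30 and 13.25 in WT(LPS). This was a difference of 0.06 with a 95% interval from -0.21 to 0.34 (adjusted p = 0.867). Its 4 group means lay between 13.26 and 13.34, where the highest value on any array was 15.0. The second probe set of *B2m* had a mean of 12.80 and differed by 0.14 (adjusted p = 0.676).

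Set against the whole array, the comparison of miR-155-/-(LPS) with WT(LPS) called 2 of the 9 genes higher, *Tap1* and *Psmb9*, and none lower, where 0.951% of all probe sets were called higher and 0.513% lower. The same 2 genes passed a rule of an unadjusted p below 0.05 with a log2 difference above 1, as did 1.52% of all probe sets in that direction. All 9 genes had both knockout arrays above both WT arrays, which held for 25.3% of all probe sets. The median of the 9 differences was 0.62, and that of all probe sets was 0.02. The calls of *Tap1* and *Psmb9* depended on single arrays. Both were lost when either miR-155-/-(LPS) array, either WT(LPS) array or either miR-155-/-(LPS + IL-10) array was left out (adjusted p up to 0.167 for *Tap1*, up to 0.198 for *Psmb9*), although the differences then stayed between 1.32 and 1.71 for *Tap1* and between 1.08 and 1.24 for *Psmb9*. Without both arrays of WT donor 1, whose stromal markers were high, they were 1.28 and 1.16 (adjusted p = 0.0805 and 0.107). With probe sets of a mean under 6 left out, 5 of the 9 were called higher here, as were 5.57% of the 15434 probe sets then tested.

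*Tap1* and *Tap2* were called lower with IL-10 in knockout macrophages, and no other gene of the 9 passed. This compares with 1.42% of all probe sets called lower and 1.26% called higher in that comparison. Only *Tap1* passed the unadjusted rule, as did 1.42% of all probe sets in that direction. All 9 genes had both miR-155-/-(LPS + IL-10) arrays below both miR-155-/-(LPS) arrays (23.4% of all probe sets), with a median difference of -0.56. The calls of both genes were lost when any of the 4 knockout arrays was left out, and that of *Tap2* also without any WT array (adjusted p up to 0.148 for *Tap1* and 0.205 for *Tap2*), with differences from -1.37 to -1.18 and from -1.06 to -0.78. Both were also lost without the donor block (adjusted p = 0.0536 and 0.0745), and that of *Tap1* with its 4 probe sets averaged (-0.28, adjusted p = 0.347), 2 of its dim probe sets having the opposite sign (0.06 and 0.18). In WT macrophages the median difference with IL-10 was -0.16, and that of all probe sets was 0. The constitutive catalytic subunits, the other 20S core subunits and the 19S cap subunits had medians near it there (-0.13, -0.15 and -0.14). No gene of the 9 was called lower by limma there (0.0222% of all probe sets), *Tap1* and *Psmb8* were lower at an unadjusted p under 0.05 (4.58% of all probe sets), and 6 genes had no overlap of arrays (16.7%). *Tapbp*, *B2m* and *Erap1* overlapped.

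Each donor can also be compared with itself. Every one of the 4 donors had a lower value with IL-10 than without it in all 9 genes, which was so for 11.1% of all probe sets. In *Tap1* the step was -1.27 and -1.29 in the miR-155-/- donors and -0.68 and -0.78 in the WT donors. In *Tap2* it was -0.88 and -0.96 in the miR-155-/- donors and -0.10 and -0.28 in the WT donors. *Psmb9* gave -0.66 and -0.72 in the miR-155-/- donors and -0.29 and -0.02 in the WT donors. The steps of both miR-155-/- donors were thus larger in size than those of both WT donors in these 3 genes, and also in *Tapbp*, *Psmb10*, *B2m* and *Erap1*. That made 7 of the 9 genes, where 21.1% of all probe sets showed the same arrangement. In *Psmb8* and *Psme1* the donors of both genotypes overlapped. In *B2m* the 4 steps lay between -0.04 and -0.01. Other probe sets did not all follow. That of *Tapbp* had the reverse arrangement, with -0.43 and -0.57 in the miR-155-/- donors and -0.83 and -0.62 in the WT donors. That of *B2m* gave -0.06 and -0.14 in the miR-155-/- donors but 0.08 and 0.05 in the WT donors. The second probe set of *Erap1* gave 0.05 in WT donor 1.

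**Figure D3:**
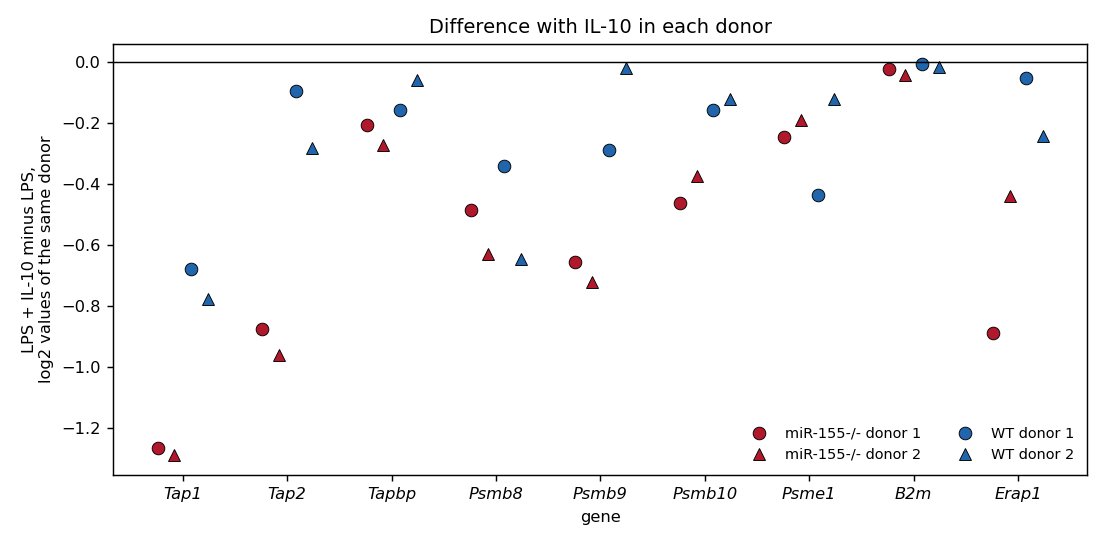
Log2 value with LPS + IL-10 minus that with LPS alone in the same donor (y axis) for each gene (x axis), with miR-155-/- donors in red and WT donors in blue. All points lie below 0, from -1.29 in *Tap1* to -0.01 in *B2m*.

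Whether the step with IL-10 differed between the genotypes was tested as an interaction. No gene of the 9 was called (0.0333% of all probe sets were, with a more negative step in the knockout), and 2 had an unadjusted p under 0.05 (5.01% of all probe sets). These were *Tap2*, with a difference between the steps of -0.73 ± 0.21 (adjusted p = 0.363), and *Psmb9*, with -0.53 ± 0.21 (adjusted p = 0.456). *Tap1* gave -0.55, with a 95% interval from -1.14 to 0.04 (adjusted p = 0.504). With IL-10 in both genotypes, no gene of the 9 was called higher in miR-155-/-(LPS + IL-10) than in WT(LPS + IL-10), as were 0.0378% of all probe sets. At an unadjusted p under 0.05, 5 were higher (*Tap1*, *Psmb8*, *Psmb9*, *Psmb10* and *Psme1*, against 5.59% of all probe sets), and those 5 and *Tap2* had no overlap of arrays (23.2%). The median of the 9 differences was 0.33, and that of all probe sets was 0.03.

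Other genes of the class I route were read the same way. Of 16 listed class I heavy chain genes, 7 had a probe set of their own and 0 of them passed in any comparison. Heavy chain genes are near-identical in sequence, so their values are uncertain. *H2-K1* and *H2-D1*, the classical heavy chains, differed between miR-155-/-(LPS) and WT(LPS) by 0.22 and 0.19 (adjusted p = 0.531 and 0.574), and between miR-155-/-(LPS + IL-10) and miR-155-/-(LPS) by -0.27 and -0.26 (adjusted p = 0.282 and 0.295). All 7 ranged more widely, from -0.04 to 0.84 in the first comparison (6 positive, median 0.19). In the second they ranged from -0.94 to 0.32 (5 negative, median -0.26). Of 7 other chaperones of the endoplasmic reticulum, 1 passed. *Tapbpl*, a tapasin homologue that edits peptides, was at 6.42 and 6.20 in miR-155-/-(LPS + IL-10), against 7.29 and 6.99 in miR-155-/-(LPS), a difference of -0.82 (adjusted p = 0.0486, from 0.0511 to 0.285 with 1 array left out, and 0.119 without the donor block). Among these 7, 6 had a lower mean in miR-155-/-(LPS) compared with WT(LPS), and the median difference was -0.16. *Uggt1*, which checks glycoprotein folding, and *Pdia3*, an oxidoreductase of the loading complex, both named after their values were seen, differed there by -0.61 and -0.46 (adjusted p = 0.0855 and 0.254). With IL-10 in the knockout both differed by 0.47 (adjusted p = 0.0936 and 0.141), the opposite sign to that of the 9 genes. Of 5 measured cytosolic and other peptidases and of 8 proteasome assembly factors and regulators, 0 passed in any comparison.

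Among 18 measured regulators of class I genes, 2 were called higher in miR-155-/-(LPS) compared with WT(LPS) (0.951% of all probe sets). In miR-155-/-(LPS + IL-10) compared with miR-155-/-(LPS), 3 were called lower (1.42%). In the first comparison 15 differences were positive and 3 negative (median 0.25, lowest -0.40), and in the second 7 and 11 (median -0.19). With IL-10 in WT, 12 were positive and 6 negative (median 0.10), whereas all 9 genes had a negative difference. *Stat2*, the signal transducer of type I interferon, was at 9.97 and 9.59 in miR-155-/-(LPS), against 8.62 and 8.75 in WT(LPS), a difference of 1.10 (adjusted p = 0.0297, from 0.0514 to 0.191 with 1 array left out). *Jak2*, a cytokine receptor kinase, was at 11.70 and 11.63 in miR-155-/-(LPS), against 10.26 and 10.54 in WT(LPS), a difference of 1.27 (adjusted p = 0.0231, up to 0.181). With IL-10 in the knockout, *Stat2*, *Jak2* and *Tyk2*, a kinase of the type I interferon receptor, differed by -1.10, -0.86 and -0.80 (adjusted p = 0.013, 0.0355 and 0.0477, up to 0.106, 0.239 and 0.279 with 1 array left out). The call of *Jak2* was lost with the donor as a fixed block (adjusted p = 0.0573) and those of *Jak2* and *Tyk2* without the block (adjusted p = 0.0693 and 0.126). *Irf1*, the interferon regulatory factor that acts on *Tap1* and *Psmb9*, was at 9.56 and 9.27 in miR-155-/-(LPS), against 8.69 and 8.67 in WT(LPS), a difference of 0.73 (adjusted p = 0.0719). *Nlrc5*, the coactivator of class I genes, was at 11.04 and 10.82 in miR-155-/-(LPS), against 10.23 and 10.38 in WT(LPS), a difference of 0.62 (adjusted p = 0.379). Its WT(LPS + IL-10) arrays stood apart from each other, at 10.27 and 11.16. The interferon genes *Ifnb1*, *Ifna4* and *Ifng* were at 3.47 or below on every array, and 0 of the 3 passed.

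**Figure D4:**
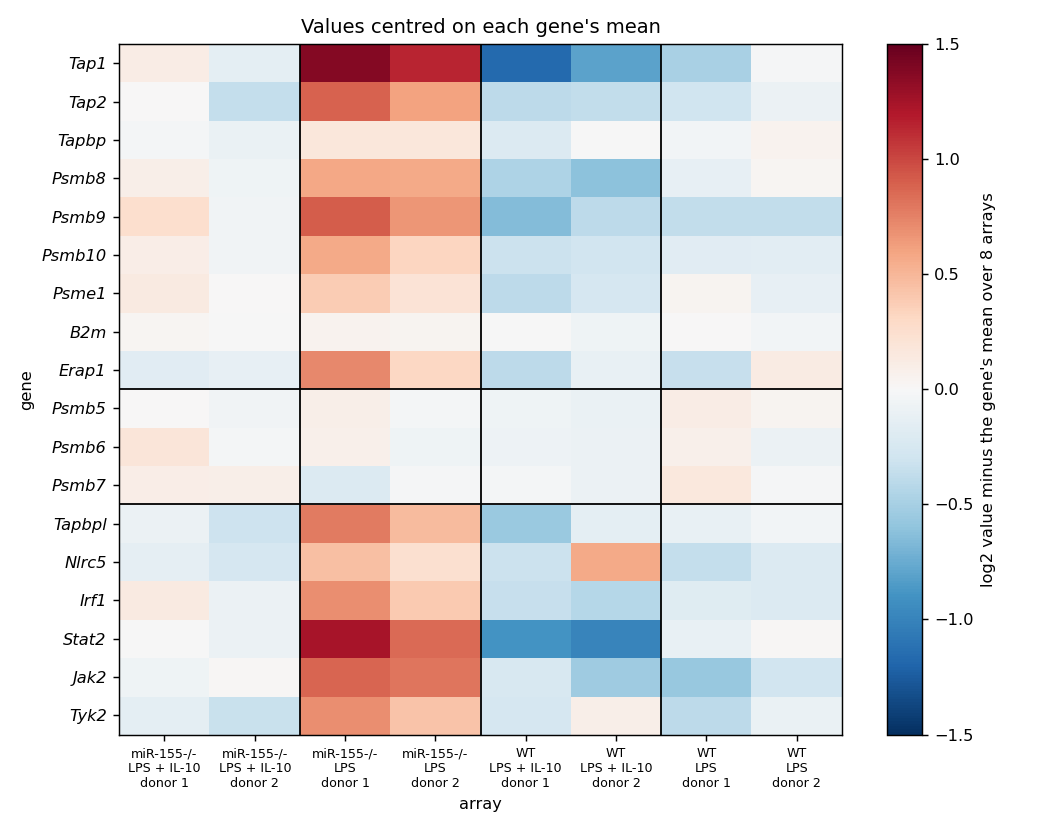
Log2 value minus the gene's mean over the 8 arrays (colour) for each array (x axis) and gene (y axis): the 9 genes at the top, the constitutive subunits *Psmb5*, *Psmb6* and *Psmb7* in the middle, and *Tapbpl* with the regulators at the bottom. Both miR-155-/-(LPS) columns are positive for the 9 genes, and *Tap1* has means of 10.63 in miR-155-/-(LPS) and 9.37 over all arrays.

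The mean of the 9 centred values per array was also set against 8476 other genes whose mean log2 value was 6 or more. The 10 most alike, by Pearson's r over the 8 arrays, were *Parp9*, *Nmi*, *Mx2*, *Tnfaip3*, *Tnf*, *Slamf7*, *Nt5c3*, *Daxx*, *Pex16* and *Oas1b*, with r from 0.995 to 0.988. These are the top of a ranking over arrays that share donors and groups, and are a description. *Mx2* and *Oas1b* are antiviral interferon-stimulated genes, *Parp9* and *Nmi* take part in interferon signalling, *Tnf* is a cytokine and *Tnfaip3* restrains NF-kB. In miR-155-/-(LPS) minus WT(LPS), *Mx2* differed by 2.39, *Parp9* by 1.00 and *Tnfaip3* by 0.66. In miR-155-/-(LPS + IL-10) minus miR-155-/-(LPS), the same genes differed by -1.95, -0.77 and -0.54.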

How the data were processed

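RNA was sent by the authors to a company, where it was amplified and labelled with NuGEN kits and hybridised to Affymetrix whole-genome mouse expression arrays. The deposited values are log2 RMA values made by the authors with the affy package, and the authors used limma; no source used here gives their versions. The deposited log2 values were used unchanged, with 0 array columns of no sample. Of 45101 probe sets, 64 controls and 26 annotated only to Y-linked genes or *Xist* were left out, and 45011 were tested. By the array annotation 34958 had 1 gene symbol, 932 several and 9211 none.

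All 8 arrays were fitted with limma 3.58.1 (lmFit and eBayes) under R 4.3.3, with the donor as a random block (duplicateCorrelation, 0.24) and Benjamini-Hochberg adjustment over 45011 probe sets. A call is an adjusted p under 0.05. Donors come from genotype and replicate number, and the deviations of the arrays of one donor from the group means correlated at 0.754 in WT and 0.23 in knockout. The number of arrays limits the precision.

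All 10 genes, *Psmb5*, *Psmb6*, *Psmb7*, *Nlrc5*, *Irf1*, called genes of 15 lists and the 10 most alike genes are named. The genes and lists were chosen with earlier results of these data known. Alternatives were no block, a fixed donor block, only the arrays compared, array weights, a mean of at least 6, robust hyperparameters with an intensity trend, median centring, a second quantile normalization, the mean of a gene's probe sets, each array left out and, added after seeing the data, both arrays of WT donor 1 left out. T, B and dendritic cell marker lists had 0 calls. Sequences are RefSeq's of GRCm38.p6. Plots used Python 3.11.15 and matplotlib 3.10.9.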

Additional observations from a re-analysis of the deposited data

How the results depend on the processing

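Of the 9 genes, 2 were called in miR-155-/-(LPS) minus WT(LPS) and 2 in miR-155-/-(LPS + IL-10) minus miR-155-/-(LPS). When dim probe sets (mean under 6) were left out, 5 (*Tap1*, *Tap2*, *Psmb8*, *Psmb9*, *Psmb10*) and 6 (these and *Erap1*) were called, as with an intensity trend and robust hyperparameters (5 and 6). Calls in the same direction over all probe sets rose too, to 5.57% and 10% of the 15434 then tested and to 2.09% and 2.7% with the trend, against 0.951% and 1.42%. Array weights called 3 in the first comparison (*Tap2* added, adjusted p = 0.0484) and 4 in the second, with 1.24% and 2.71% of all probe sets. With the mean of a gene's probe sets, 1 was called in each (*Psmb9*, then *Tap2*), with 0.949% and 1.42% of all probe sets. The unadjusted rule then selected 1 and 0. In the first comparison 0 were called with only the arrays compared. Calls over all probe sets, in either direction, then fell from 659 to 77. The calls of the first comparison also depended on WT donor 1 and on single arrays, as given above. Without both arrays of WT donor 1, an alternative chosen after seeing the data, *Tap1* and *Psmb9* differed by 1.28 and 1.16. In the second, 0 to 1 were called and 1 to 2 selected with 1 array left out. In miR-155-/-(LPS + IL-10) minus WT(LPS + IL-10), *Tap1* was the 1 call under the trend and the 1 selected after median centring, and 0 to 1 were selected with 1 array left out.

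Without the donor block 0 were called in the second comparison, and with the donor as a fixed block 2. Of all probe sets, 0.607% and 1.91% were then called lower, against 1.42%. Where too few pairs of arrays were left to estimate the donor correlation, that of all 8 arrays was used.

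Apart from the dim probe sets of *Tap1*, signs turned only in uncalled differences. *B2m* with IL-10 in WT was 0.0252 with its probe sets averaged, 0.0635 in its other probe set and -0.0385 to 0.0123 with 1 array left out, and *Erap1* there was -0.354 to 0.0572. The dim probe sets of *Tap1* gave 0.0691, 0.278 and 0.12 with IL-10 in WT, 0.0599 and 0.184 with IL-10 in the knockout, -0.271 between the genotypes with IL-10 and 0.0637 in the interaction. Between the genotypes with IL-10, *Tapbp* was -0.0565 and *Erap1* -0.0334 without WT donor 1, *Tapbp* -0.0473 to 0.126 with 1 array left out, and the other *B2m* probe set -0.0266. In the interaction, *Tapbp* was 0.0448 with probe sets averaged and 0.219 in its other probe set. *Psmb8* was 0.0868 without WT donor 1 and -0.159 to 0.0283 with 1 array left out, *Psme1* -0.0974 and -0.0405 to 0.161, and *B2m* -0.0461 to 0.0047. The cause was not tested.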
